A study of Rattus norvegicus with 6 samples.

Results

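The 10 genes described here are the transcription factor gene Atf4, its relative Atf5 and 8 genes that ATF4 is known to switch on during the integrated stress response: Ddit3, Trib3, Asns, Chac1, Sesn2, Ddit4, Gdf15 and Nupr1. They were given by name, as known genes of that response, and were found among 31179 genes measured in rat renal cortex by matching each probe's transcript accession to a gene symbol. All 10 passed the detection filter, and the brightest probe of each was well above background on all 6 arrays. The treated group was 3 male Sprague-Dawley rats given benzyl acetate at 1000 mg/kg/day for 4 weeks, and the vehicle group was 3 male rats of the same strain given corn oil for the same 4 weeks. All were 5 weeks old when bought and ate a basal diet, and each rat gave 1 array and counts as 1 biological replicate. Only 1 dose and 1 time were measured here, so the values describe the renal cortex after sustained dosing and say nothing of earlier hours or days.

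In the integrated stress response, kinases that sense different stresses phosphorylate the translation initiation factor eIF2. General protein synthesis then slows, while the Atf4 message is translated more, and ATF4 protein raises genes for amino acid synthesis, amino acid uptake, tRNA charging and feedback. The kinase GCN2, encoded by Eif2ak4, is the one that responds to uncharged tRNA, so this programme is also called the amino acid response. Benzyl acetate is split to benzyl alcohol and oxidised to benzoic acid, which mitochondria join to glycine to form hippuric acid for excretion. The question is whether any drain on glycine is visible in the kidney as an amino acid response. Glycine, benzoic acid and hippuric acid were not measured here. Because ATF4 is controlled mainly through translation of its message, the level of Atf4 RNA is not a measure of ATF4 protein, and the target transcripts are the more direct reading.

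Values are log2 of the background-subtracted spot signal minus the log2 of that array's 75th percentile over its 61537 non-control probes. Each probe binds with its own efficiency, so differences in signal between genes are not read as differences in RNA level, and signal rank served only to choose probes and named genes. The 75th percentile ran from 883 to 990 signal units with benzyl acetate and from 1003 to 1057 with vehicle, and 69.0% to 69.8% of probes were well above background with benzyl acetate against 70.5% to 72.0% with vehicle. Vehicle replicate 1 was on a slide of its own, the other 5 arrays shared the second slide, and benzyl acetate replicate 3 had the lowest 75th percentile. Proximal tubule markers, the signature of renal cortex, were well above background for 7 of 7 genes, the brightest being Miox and Fbp1, with a summed level of 11.08 to 11.25 log2 with benzyl acetate and 11.07 to 11.11 with vehicle. The 5 measured of 6 T and NK cell markers had a summed level of 0.75 to 1.00 log2 with benzyl acetate and 1.02 to 2.14 with vehicle, with Cd3d and Nkg7 the brightest and all 5 lower on average with benzyl acetate. Vehicle replicate 3 stood apart at 2.14, and vehicle replicates 1 and 2 were at 1.12 and 1.02. Cd2, outside the naming rule, was well above background on 0 of the 3 benzyl acetate arrays and on 3 of the 3 vehicle arrays. It therefore passed the detection filter through the vehicle arrays alone. The 5 macrophage markers, led by Lyz2 and Tyrobp, summed to 5.93 to 6.54 with benzyl acetate and 6.20 to 6.38 with vehicle. All 5 were also lower on average with benzyl acetate, with a median difference of -0.13 log2. The sums add unlogged signals, so the brightest markers of each list weigh most in them. All 4 thick ascending limb markers were lower on average too (median -0.255), while 3 of 4 podocyte markers were higher (median 0.128). The part of these differences in the values below was not tested.

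ATF4 binds, with a C/EBP partner, to a composite element in the control regions of its targets, and 3 of the 10 genes hold letters of that element close to their annotated start. The motif searched was TGATGNAA on both strands, in the 250 bases before each start in the RefSeq promoter table of build GRCr8, where all 10 symbols matched and Gdf15 has 2 starts. It was found before Chac1, Nupr1 and Trib3, against 3.4% of 33469 rat promoters of the same length. The windows are shown because they carry the feature that gives the gene set its name, with the match in capitals and each read along its gene's own strand.
Chac1, chr3:126795934-126796001, + strand, match beginning 167 bases before the start: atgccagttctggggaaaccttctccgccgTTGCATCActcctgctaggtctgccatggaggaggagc
Nupr1, chr1:190645919-190645986, - strand, match beginning 55 bases before the start: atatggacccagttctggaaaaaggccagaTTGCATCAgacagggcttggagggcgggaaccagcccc
Trib3, chr3:161275534-161275584, - strand, match beginning 21 bases before the start: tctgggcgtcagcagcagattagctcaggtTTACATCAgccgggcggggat
In all 3 the match lies on the strand opposite the gene, so the capitals are the reverse complement of the motif as spelled. The Chac1 and Nupr1 matches are identical in their 8 letters and the Trib3 match differs from them. A second motif, the core of the antioxidant response element that NRF2 binds, TGACNNNGC, was found before Sesn2 and Gdf15, against 10.1% of all promoters. A match is a description of letters and does not show binding, and no match says only that the letters are not in this window.

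None of the 10 transcripts differed past the threshold between benzyl acetate and vehicle. By limma, 0 of the 10 genes passed an adjusted p under 0.05 in either direction, where 0 of all 31179 genes tested passed (0%), and the adjusted p-values of the 10 ran from 0.726 to 0.998. At an unadjusted p under 0.05 there was 1 of the 10, Atf4, on the lower side, against 6.74% of all genes in both directions, 3.82% higher and 2.92% lower. Of the 31179 genes 12276 had a symbol, as the 10 do, and of those 340 were higher and 335 lower at that threshold. Of the 10 differences 5 were above 0 and 5 below, with a median of -0.02 log2 beside 0.01 for all genes. Every treated array lay below every vehicle array for 1 of the 10, against 5.31% of all genes, and the treated arrays lay above all vehicle arrays for 0 of the 10, against 7.51% of all genes. Among the 12276 genes with a symbol, 731 lay below in this way and 724 above. In whole tissue, fewer cells of a type and less RNA per cell cannot be told apart.

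**Figure D1:**
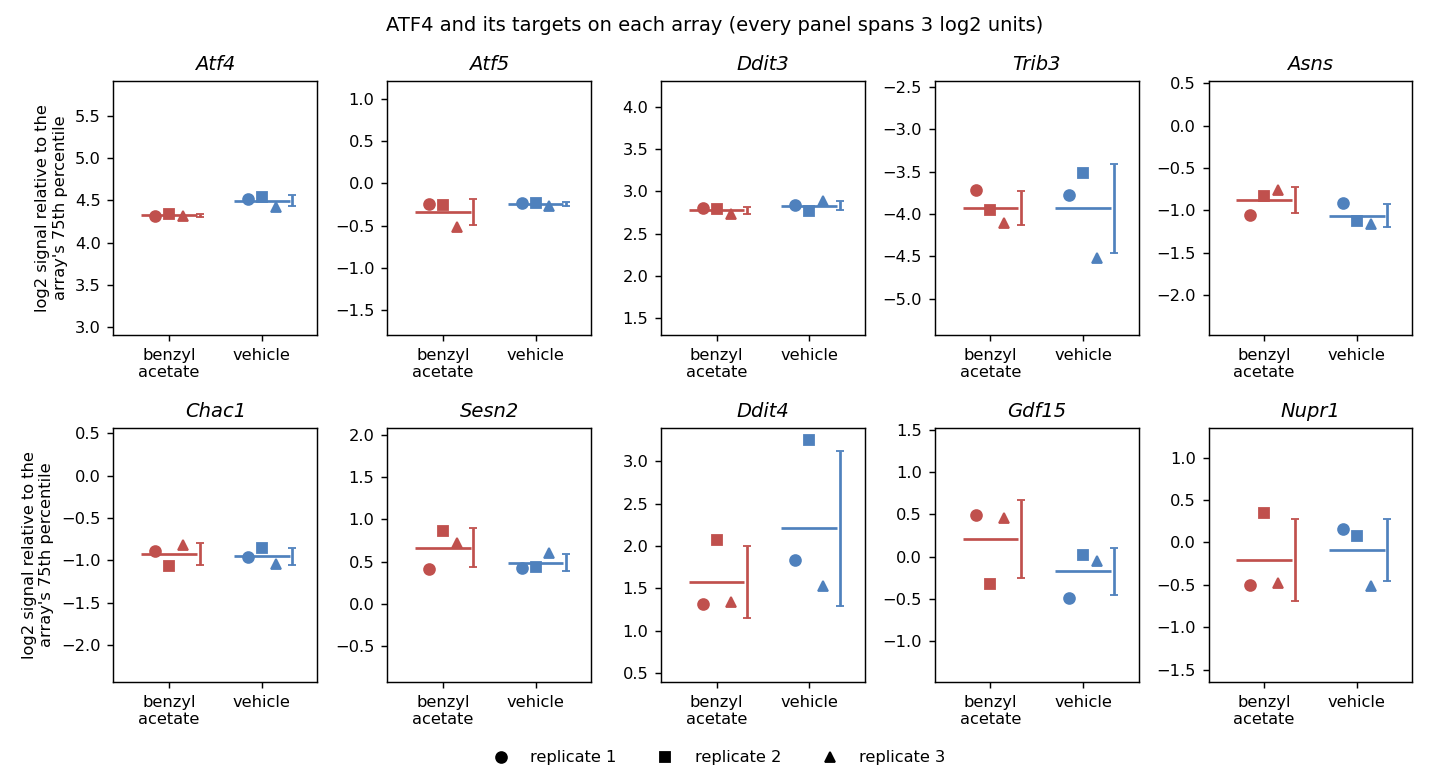
Log2 signal above or below the 75th percentile of its array for each of the 10 genes, benzyl acetate in red on the left and vehicle in blue on the right, 1 point per rat with the shape giving the replicate number, a bar for the mean and a whisker for 1 SD (n = 3 per group). The groups overlap in 9 panels, the Atf4 points with benzyl acetate all lie below those with vehicle, and Ddit4 has 1 high vehicle point at 3.25.

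Atf4 itself, the bZIP factor at the centre of the programme, was the steadiest of the transcripts within the treated group. Its log2 signal was 4.31, 4.34 and 4.32 with benzyl acetate and 4.52, 4.54 and 4.42 with vehicle. The groups did not overlap, and all 3 treated rats were below the lowest vehicle rat. Treated rats averaged 4.32 ± 0.015 log2 and vehicle rats 4.49 ± 0.062 (SD, n = 3 each). The difference of -0.17 log2 (95% interval -0.33 to -0.01) is 0.889 of the vehicle level, and it did not pass in limma (unadjusted p = 0.0401, adjusted p = 0.726). The sign was the same in all 15 alternatives, but not all of them could move it. The replicate block, the detection filters and the mean over its single probe left the difference at -0.17. The unadjusted p was no longer under 0.05 without benzyl acetate replicate 3 (difference -0.17), without vehicle replicate 1 (-0.16) or without vehicle replicate 2 (-0.145). Nor was that p under 0.05 with no filter on dim probes (-0.17). The slide as a block (-0.16) is the same fit as leaving out vehicle replicate 1.

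Atf5, a related bZIP factor that is itself translated more under eIF2 phosphorylation, had -0.24, -0.26 and -0.52 log2 with benzyl acetate and -0.23, -0.23 and -0.27 with vehicle. Benzyl acetate replicate 3 was the lowest array, and the other treated arrays lay between the vehicle values. The difference was -0.10 log2 (-0.33 to 0.13; adjusted p = 0.869 in limma), and without benzyl acetate replicate 3 it was -0.01.

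Ddit3 encodes CHOP, the bZIP factor that acts with ATF4 when the stress persists and that promotes cell death. Its brightest probe gave 2.80, 2.79 and 2.73 log2 with benzyl acetate and 2.84, 2.77 and 2.88 with vehicle. All 6 arrays fell within 0.14 log2, the narrowest range among the 10 genes, and the groups overlapped. The difference was -0.06 log2 (-0.215 to 0.102; adjusted p = 0.891 in limma), an interval of 0.861 to 1.07 times the vehicle level. A dimmer Ddit3 probe, also detected on all 6 arrays, differed by -0.01.

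Trib3 encodes a pseudokinase that ATF4 and CHOP induce and that feeds back on ATF4. It had -3.71, -3.95 and -4.11 log2 with benzyl acetate and -3.77, -3.51 and -4.52 with vehicle. It lay low in the range of detected probes, whose dimmest stood at -5.76 to -6.24 log2 depending on the array, and vehicle replicates 2 and 3 were the highest and the lowest of the 6 arrays. The difference of 0.01 log2 had an interval of -0.66 to 0.68, or 0.632 to 1.6 times the vehicle level, and a true difference anywhere inside that range is compatible with these values. Its sign turned under quantile and median scaling (-0.02 in each), and when benzyl acetate replicate 1 (-0.10) or vehicle replicate 3 (-0.29) was left out.

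Asns and Chac1 act on amino acids directly. Asns, asparagine synthetase, is a classical reporter of amino acid shortage. It had -1.05, -0.83 and -0.76 log2 with benzyl acetate and -0.91, -1.12 and -1.16 with vehicle. Benzyl acetate replicates 2 and 3 were above all vehicle rats and replicate 1 was not. The difference was 0.18 log2 (-0.09 to 0.46; adjusted p = 0.803 in limma), between 0.939 and 1.37 times the vehicle level. It was above 0 in all 15 alternatives, some of which could not change it, from 0.12 without benzyl acetate replicate 3 to 0.27 without benzyl acetate replicate 1.

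Chac1 degrades glutathione, a tripeptide that contains glycine, and is one of the targets that ATF4 induces strongly. Its brightest probe had -0.89, -1.07 and -0.82 log2 with benzyl acetate and -0.96, -0.85 and -1.05 with vehicle, fully overlapping. The difference was 0.03 log2 (-0.203 to 0.265; adjusted p = 0.971 in limma), so the interval reached no further than 0.869 to 1.2 times the vehicle level. Of its other probes, 1 was well above background on 5 of 6 arrays and differed by 0.09, and 1 was not well above background on any array.

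Sesn2 and Ddit4 are brakes on the growth kinase mTORC1. Sesn2, which encodes the leucine-binding protein Sestrin2, had 0.41, 0.86 and 0.72 log2 with benzyl acetate and 0.43, 0.44 and 0.60 with vehicle. Benzyl acetate replicates 2 and 3 were above all vehicle rats and replicate 1 was below them. The difference was 0.17 log2 (-0.15 to 0.49; adjusted p = 0.836 in limma), from 0.07 to 0.30 when 1 array was left out.

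Ddit4, which encodes REDD1, varied most of the 10, with an SD of 0.728 log2 over the 6 arrays. It had 1.32, 2.07 and 1.34 log2 with benzyl acetate and 1.84, 3.25 and 1.53 with vehicle. Vehicle replicate 2 stood highest, at 10015 signal units against 2238 to 4163 on the treated arrays and 3052 and 3592 on the other vehicle arrays. Treated rats averaged 1.58 ± 0.43 log2 and vehicle rats 2.21 ± 0.92 (SD, n = 3 each), a difference of -0.63 log2 (-1.81 to 0.555; adjusted p = 0.836 in limma). Without vehicle replicate 2 the difference was -0.11 and without vehicle replicate 3 it was -0.97. All 3 Ddit4 probes were detected on every array, each was highest in vehicle replicate 2, and they differed by -0.63, -0.54 and -0.41.

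The genes whose array-by-array pattern was nearest to that of Ddit4 were Cebpd, Slc2a4 and Zfp36, with root mean square differences of 0.213, 0.225 and 0.239 log2 from it over the 6 arrays after centring, among 11934 genes with a symbol. Cebpd had 1.07, 1.35 and 0.42 log2 with benzyl acetate and 1.15, 2.41 and 0.84 with vehicle. All 3 were highest in vehicle replicate 2, which follows from choosing them by likeness to Ddit4 and is no separate observation. Ddit4 is also known as a glucocorticoid-induced gene, and 3 further glucocorticoid targets, picked out after their values were seen, were highest in replicate 2 of each group as Ddit4 was. Sgk1 had 3.39, 4.03 and 2.96 log2 with benzyl acetate and 3.10, 3.93 and 2.81 with vehicle, Tsc22d3 had 1.90, 2.86 and 1.95 with benzyl acetate and 1.5, 2.56 and 1.79 with vehicle, and Per1 had -1.88, -1.40 and -2.76 with benzyl acetate and -2.05, -1.23 and -2.43 with vehicle. Fkbp5, another glucocorticoid target also picked out after its values were seen, was highest in replicate 3 of the treated rats, at 2.39, and in replicate 2 of the vehicle rats, at 2.45. By the same distance from Ddit4, Per1, Sgk1 and Tsc22d3 ranked 42, 111 and 354 of the 11934 genes, and Fkbp5 ranked 6224. The share of all genes that are highest in replicate 2 of both groups was not counted. The part of these differences between animals in the Ddit4 value was not tested.

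**Figure D2:**
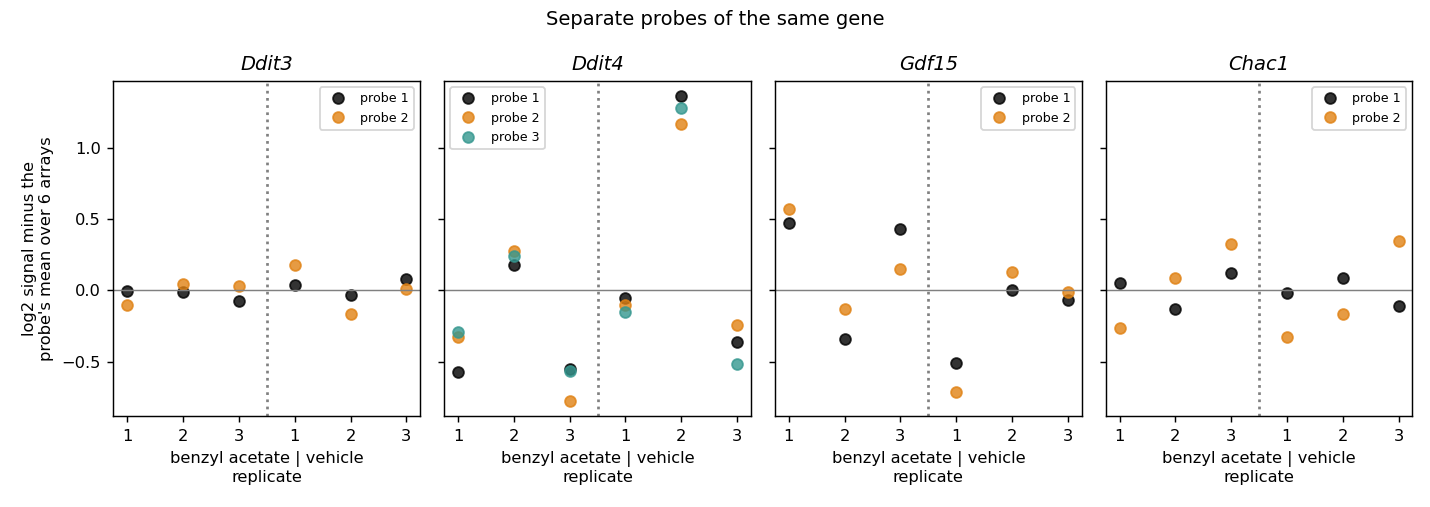
Log2 signal of each probe minus its mean over the 6 arrays, for the 4 of the 10 genes with more than 1 probe, with the benzyl acetate replicates left of the dotted line and the vehicle replicates right of it. The 3 Ddit4 probes and the 2 Gdf15 probes move together from array to array, while the 2 probes of Ddit3 and the 2 drawn for Chac1 do not follow each other. Only probes well above background on at least 5 arrays are drawn.

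Gdf15 encodes a secreted stress hormone that rises with mitochondrial and nutrient stress. It had 0.49, -0.32 and 0.45 log2 with benzyl acetate and -0.49, 0.02 and -0.05 with vehicle. Benzyl acetate replicates 1 and 3 were above all vehicle rats and replicate 2 was below vehicle replicates 2 and 3. The difference was 0.38 log2 (-0.25 to 1.01; adjusted p = 0.822 in limma), a 1.3-fold higher mean with an interval of 0.84 to 2.01. A second Gdf15 probe gave 0.39. Leaving out benzyl acetate replicate 2 gave 0.64, leaving out benzyl acetate replicate 1 gave 0.24, and leaving out vehicle replicate 1 gave 0.22.

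Nupr1 encodes a small stress-induced chromatin protein. It had -0.50, 0.35 and -0.48 log2 with benzyl acetate and 0.16, 0.08 and -0.51 with vehicle, so each group held high and low rats. The difference was -0.12 log2 (-0.835 to 0.595; adjusted p = 0.960 in limma). It lay between -0.40 without benzyl acetate replicate 2 and 0.02 without benzyl acetate replicate 1, and at 0.013 without benzyl acetate replicate 3 and 0.005 with vehicle replicate 1 left out. Nupr1 and Gdf15 ran opposite ways in the treated rats: replicate 2 was the highest for Nupr1 and the lowest for Gdf15.

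How large a change could have been missed differs from gene to gene. For 6 of the 10, Atf4, Atf5, Ddit3, Asns, Chac1 and Sesn2, the whole 95% interval lay inside a 1.5-fold difference, as it did for 73.9% of all genes tested and 77.1% of those with a symbol. For Trib3 and Nupr1 it lay inside a 2-fold difference, as for 91.5% of all genes, and for Ddit4 and Gdf15 it went beyond. For the 8 targets the upper ends, which bear on a response that rises, were 1.07-fold for Ddit3, 1.2-fold for Chac1, 1.37-fold for Asns, 1.41-fold for Sesn2, 1.47-fold for Ddit4, 1.51-fold for Nupr1, 1.6-fold for Trib3 and 2.01-fold for Gdf15.

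**Figure D3:**
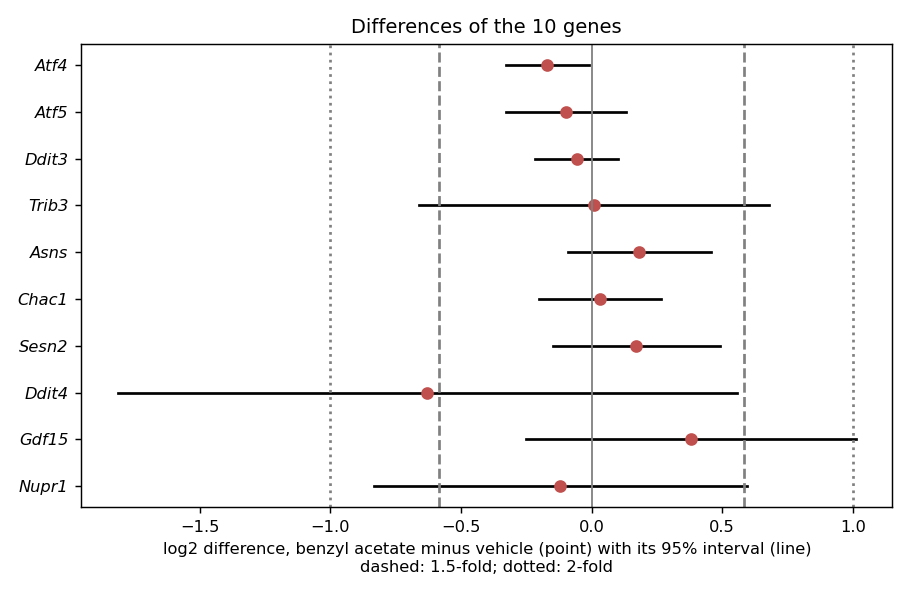
Difference in log2 signal, benzyl acetate minus vehicle, for each of the 10 genes as a point with its 95% interval from limma as a line (n = 3 per group), with dashed lines at 1.5-fold and dotted lines at 2-fold. The intervals of 6 genes lie between the dashed lines, Ddit4 reaches -1.81 on the lower side and Gdf15 reaches 1.01 on the upper side.

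The wider pathway was read from 67 further genes, of which 60 could be tested. Of the other 7, 6 had probes that were not well above background on all 3 arrays of either group, among them Slc7a11, the cystine carrier, and Fgf21, a secreted ATF4 target. By limma 0 of the 60 passed over all genes, with adjusted p-values of 0.639 to 0.998. In the same fit 4 of the 60 were under an unadjusted p of 0.05, 3 higher and 1 lower, against 6.74% of all genes. Among the 12276 genes with a symbol, as these 60 have, it was 675. Differences above 0 were found for 21 and below 0 for 39, with a median of -0.04 log2. Over all genes 16825 were above 0 and 14354 below, and over genes with a symbol 6186 were above and 6090 below. For 51 of the 60 the interval lay inside a 1.5-fold difference.

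Upstream, the kinases that phosphorylate eIF2 gave 0 calls. Eif2ak4, the amino acid sensor GCN2, had 0.00, -0.30 and -0.03 log2 with benzyl acetate and -0.09, -0.19 and -0.21 with vehicle, a difference of 0.05 (-0.19 to 0.30). Eif2ak3, the endoplasmic reticulum kinase PERK, differed by -0.08 and Eif2ak2, the double-stranded RNA kinase PKR, by -0.03. Eif2ak1, the heme-regulated kinase that also relays mitochondrial stress, had 2.55, 2.65 and 2.58 log2 with benzyl acetate and 2.85, 2.70 and 2.86 with vehicle. All treated rats were below all vehicle rats, with a difference of -0.21 (-0.40 to -0.03; adjusted p = 0.710 in limma), and a second Eif2ak1 probe gave -0.20. The GCN2 activator Gcn1 differed by 0.08 and Dele1, which carries the mitochondrial signal to the heme-regulated kinase, by 0.055.

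Among the 10 subunits of eIF2, of its exchange factor eIF2B and of the phosphatase that ends the response, the median was -0.01 log2. Eif2s2 and Eif2s1, the beta and alpha subunits of eIF2, differed by -0.01 and -0.04. Eif2b2, the beta subunit of eIF2B, had 4.94, 4.23 and 4.95 log2 with benzyl acetate and 4.22, 4.21 and 4.23 with vehicle. Benzyl acetate replicates 1 and 3 stood apart from the 4 other arrays, and the second probe had the same split, at 2.41, 1.72 and 2.42 with benzyl acetate and 1.80, 1.67 and 1.70 with vehicle. The difference of 0.49 (-0.01 to 0.98) did not pass in limma (adjusted p = 0.736).

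Of the bZIP partners, Nfe2l2, which encodes NRF2, differed by -0.11 log2, Cebpb by 0.05 and Cebpg by -0.07, and the median of the 7 was -0.07. Of the serine, glycine and folate targets, those nearest to glycine supply, 8 of 8 were tested and every interval lay inside 1.5-fold. Phgdh, which starts serine synthesis, differed by -0.03, Psat1, which follows it, by -0.01, and Shmt2, the mitochondrial enzyme that makes glycine from serine, by -0.07. The exception above 0 was Slc6a9, the glycine carrier GLYT1, named here after its values were seen, with -2.91, -2.90 and -2.95 log2 with benzyl acetate and -3.19, -3.30 and -3.16 with vehicle. Its groups did not overlap and the difference was 0.30 (0.13 to 0.47; adjusted p = 0.639 in limma), but its dimmer probes gave 0.76 and 0.02 and neither repeated the tight groups of the first.

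The aminoacyl-tRNA synthetases, which ATF4 raises together in cells short of amino acids, had a median of -0.05 log2 over 12 genes, of which 3 were above 0. Gars1, which charges tRNA with glycine, had 4.70, 4.76 and 4.75 log2 with benzyl acetate and 4.74, 4.51 and 4.63 with vehicle, a difference of 0.11 (-0.085 to 0.311; adjusted p = 0.829 in limma). Aars1 differed by 0.03 and Eprs1 by -0.07. Among the amino acid carriers, Slc3a2, the shared heavy chain of several exchangers, differed by -0.04, Slc38a2 by -0.09 and Slc1a5 by -0.06, with a median of -0.06 over 5 tested of 9. The remaining synthesis genes Got1, Cth and Aldh18a1 differed by -0.13, -0.17 and -0.17. Gpt2, the mitochondrial alanine aminotransferase, also named after its values were seen, differed by 0.69 (0.182 to 1.205; adjusted p = 0.685 in limma), with all treated rats above all vehicle rats on both of its probes.

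Among secreted, mTORC1 and autophagy targets the median was 0.13 log2 over 6 genes. Map1lc3b and Sqstm1, both of the autophagy machinery, differed by 0.09 and 0.18. Vegfa, an angiogenic factor that hypoxia also raises, had 4.42, 4.46 and 4.27 log2 with benzyl acetate and 4.10, 4.16 and 4.22 with vehicle, a difference of 0.22 (0.03 to 0.42; adjusted p = 0.709 in limma) that was above 0 on all 6 of its probes. The endoplasmic reticulum chaperones and folding genes, which respond to misfolded protein, had a median of -0.07 over 8 genes, with Hspa5 at -0.27, Herpud1 at -0.07 and Hsp90b1 at 0.06. The p53 targets, listed because p53 also induces Sesn2 and Gdf15, had a median of 0.045 over 6 genes, with Cdkn1a at 0.14, Bax at 0.05 and Ccng1 at 0.04.

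**Figure D4:**
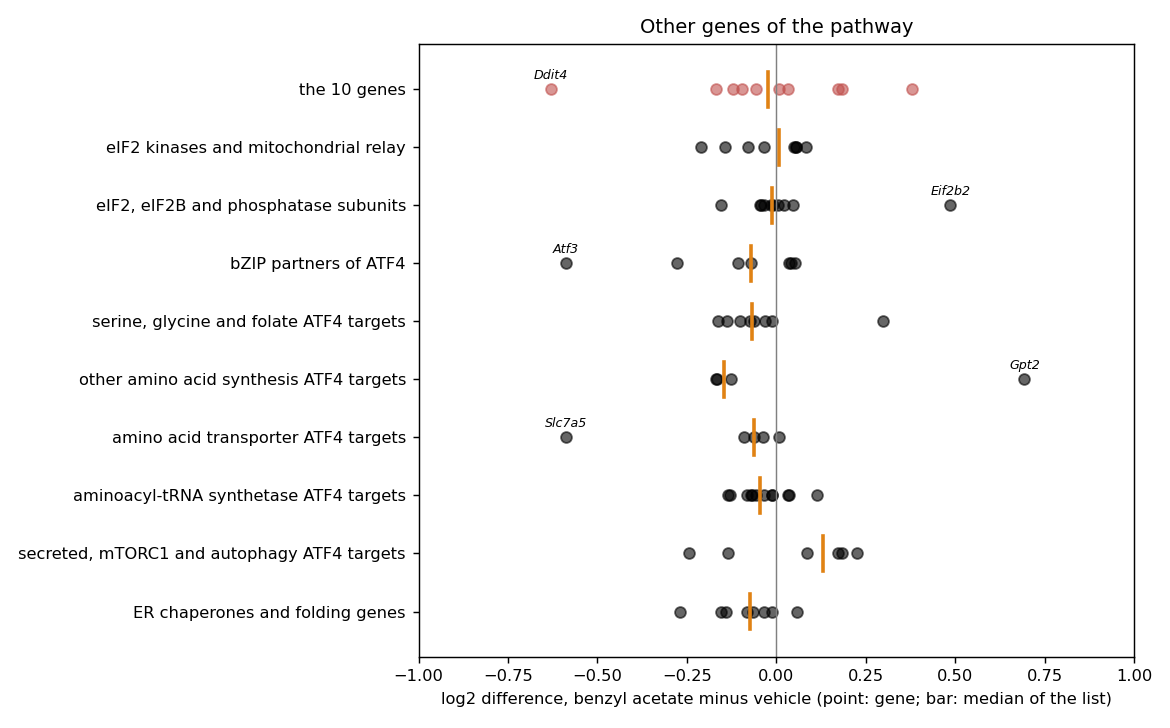
Difference in log2 signal, benzyl acetate minus vehicle, for each tested gene of the 10 (red, top row) and of 9 further lists (black), with an orange bar at the median of each list and names for genes beyond 0.4. Slc7a5 was well above background on 2 of the 3 benzyl acetate arrays and 3 of the 3 vehicle arrays, and its difference has an interval of -1.81 to 0.635. Most points lie within 0.3 of 0, and the medians run from -0.15 for the remaining synthesis genes to 0.13 for the secreted, mTORC1 and autophagy targets.

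**Figure D5:**
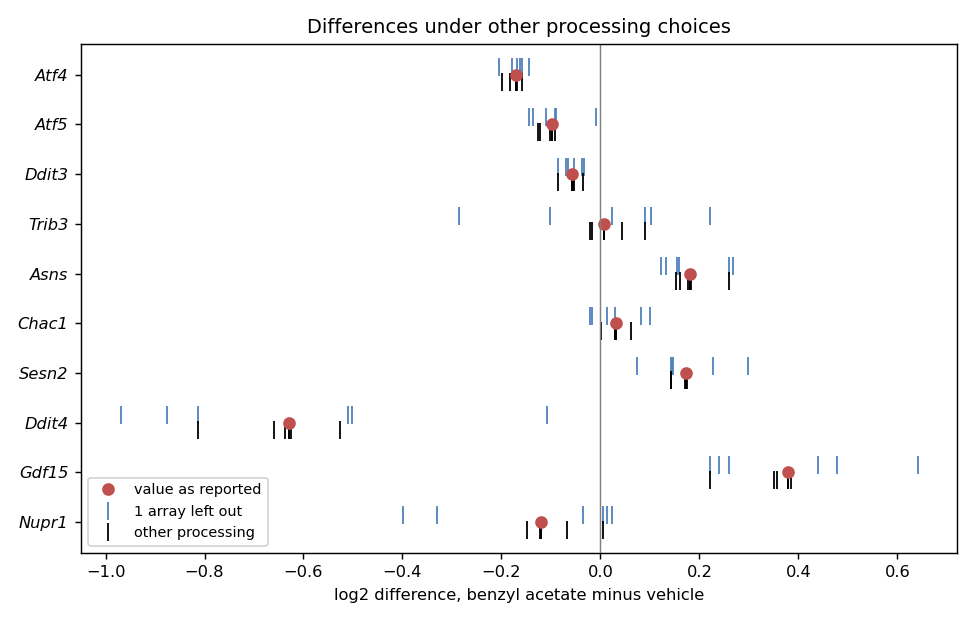
The log2 difference of each of the 10 genes, benzyl acetate minus vehicle, as reported (red points), with each array left out in turn (blue marks) and under 9 other processing choices (black marks). Atf4, Atf5, Ddit3, Asns, Sesn2, Ddit4 and Gdf15 keep 1 side of 0 throughout, Trib3, Chac1 and Nupr1 cross it, and Ddit4 spans -0.97 to -0.11.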

How the data were processed

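Cy3-labelled RNA from the renal cortex of 6 rats was read on 1-colour Agilent arrays. The submitters' processing notes name Agilent Feature Extraction 10.7. Each deposited scanner table gives an intensity per spot with background already removed and no scaling across arrays. The flags for detection and outlying spots (0 or 1, another kind of value) come from the same deposited tables, per the file headers. The series' deposited table of processed intensity equalled the scanner signal scaled to a 75th percentile of 1, within an SD of at most 0.0059 log2.

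Log2 signals were scaled to each array's 75th percentile, flagged outlier spots were left out, and no spot was saturated. Of 61537 probes 28206 matched a symbol by accession in a RefSeq table of GRCr8; the array grid names an older build, so only promoter windows carry coordinates. A probe entered when well above background on all 3 arrays of a group, and a gene was read from its brightest probe. All 31179 genes entered a single fit in limma 3.58.1, run in R 4.3.3 (Benjamini-Hochberg, threshold 0.05) and tested on simulated data. The named genes were the 10, the kinases, the 3 brightest of each further list and the 2 brightest of marker lists. The rule added the 3 nearest in pattern to the most variable of the 10, and any gene past the threshold. Others are said to be chosen afterwards, and Cd2, Slc7a5, Slc7a11 and Fgf21 also fall outside this rule. The members and lists were chosen with earlier results of these data known. Alternatives were other blocks, scalings, filters, probe rules, normexp on median spot and background signals with an offset of 50, the deposited table and leaving out each array. Replicate numbers were not taken to pair rats across groups.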

Additional observations from a re-analysis of the deposited data

How the results depend on the processing

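Over the 15 alternatives, 6 of which left out 1 array, 0 of the 10 genes passed in limma and the lowest adjusted p of any of them was 0.347. The sign of the difference held throughout for 7 genes, though the replicate block and the detection filters could not change it. Trib3 was -0.017 with quantile normalization and -0.021 with median scaling, and Nupr1 was 0.005 with the slide as a block; leaving out 1 array, Trib3 ran from -0.286 to 0.221, Chac1 from -0.021 to 0.101 and Nupr1 from -0.398 to 0.023. The cause was not tested. The count of the 10 at an unadjusted p under 0.05 was 0 with the slide as a block and 0 with no filter on dim probes, and ran from 0 to 1 when 1 array was left out. Over all genes limma called 2 with normexp, and 0 to 2 when 1 array was left out (2 without benzyl acetate replicate 1). Counting genes with an unadjusted p below 0.05, 1190 were higher and 910 lower, against 828 and 1276 with median scaling, 1555 and 737 with normexp, and 5497 and 1081 with no filter on dim probes, where 45433 genes were tested.

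With the replicate number as a block limma called 0 genes (lowest adjusted p 0.672, against 0.271 without it) and 0 of the 10, so no call changed. Arrays of the same number did not deviate together, with correlations across genes of -0.108, 0.008 and 0.001. The slide as a block takes vehicle replicate 1 out of the comparison, so this alternative repeats the one without that array. The number of arrays, 3 per group, limits the precision, and Trib3 was read at 46 to 92 signal units.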

Other observations

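In a list of 8 glucocorticoid and hypoxia targets, set beside Ddit4 because both stimuli induce it, the 3 with the highest signal were hypoxia targets and lay higher in all treated rats than in all vehicle rats. Of all genes 7.51% did so, and of the 12276 genes with a symbol 724 did. Ndrg1, a stress-responsive gene of epithelial cells, had 6.75, 6.96 and 7.03 log2 with benzyl acetate and 6.44, 6.57 and 6.68 with vehicle, a difference of 0.345 (0.085 to 0.605). Bnip3, a mitophagy receptor, had 5.04, 5.08 and 5.11 with benzyl acetate and 4.86, 4.94 and 4.99 with vehicle, a difference of 0.14 (-0.02 to 0.31). Vegfa was the third, at 0.22. Car9, a carbonic anhydrase that hypoxia raises, picked out after its values were seen, did not share this and differed by -0.02. Ddit4 itself differed by -0.63, with an interval that spans 0 (-1.81 to 0.555), and by -0.11 without vehicle replicate 2. None of these passed in limma over all genes (adjusted p = 0.700 for Ndrg1, 0.759 for Bnip3 and 0.985 for Car9).

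Atf3, a stress-induced bZIP gene outside the naming rule and picked out after its values were seen, had -0.76, -1.69 and -1.65 log2 with benzyl acetate and -0.45, -0.75 and -1.14 with vehicle, a difference of -0.59 (-1.33 to 0.15; adjusted p = 0.771 in limma). Benzyl acetate replicate 1 lay among the vehicle rats and the other treated rats lay below them.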
